A study of Mus musculus with 7 samples.

Results

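The glucocorticoid receptor genes examined here are 9 mouse genes: both corticosteroid receptors (Nr3c1 and Nr3c2), the enzymes that interconvert active and inactive glucocorticoids (Hsd11b1 and Hsd11b2), and 5 genes known as targets of these receptors or as kinases related to such a target (Fkbp5, Tsc22d3, Zbtb16, Sgk1 and Sgk2). They were chosen by name and matched by symbol to the Ensembl identifiers of the count table, which held 55414 genes, and all 9 were found. Bulk RNA-seq counts came from purified Paneth cells (PCs), the granulated secretory cells of the small intestinal crypt, of C57BL/6J mice. The animals had received either tumour necrosis factor (TNF), a pro-inflammatory cytokine, or phosphate-buffered saline (PBS) as control, and the tissue was taken 15 h after the injection. There were 3 PBS and 4 TNF libraries, each from another mouse, so both groups shared strain, time point, injection and sort. No genetic alteration is given for either group, and no source used here gives the dose, the age and sex of the mice, or the markers used for the sort. A single time point was taken, so the values describe the state of the cells at 15 h and not the course towards it.

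Glucocorticoids are steroid hormones of the adrenal cortex that rise in the blood during inflammation, and the intestinal epithelium can also make them locally. The glucocorticoid receptor, encoded by Nr3c1, is held in the cytoplasm by heat shock proteins and immunophilins, moves to the nucleus once it has bound hormone, and binds glucocorticoid response elements (GREs) or other transcription factors such as NF-kB, which TNF activates. The mineralocorticoid receptor, encoded by Nr3c2, binds the same hormones with high affinity and is guarded in aldosterone target cells by the enzyme encoded by Hsd11b2, which inactivates corticosterone.

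Total counts per library ran from 15511455 to 19193721, and neither labels nor files name a batch. The PC label was checked against 12 PC markers, among them the lysozyme gene Lyz1, whose summed level was 171000 to 280000 CPM (counts per 1000000, on library sizes scaled with TMM, the trimmed mean of M-values) in the PBS and 175000 to 319000 CPM in the TNF libraries. Lyz1 itself did not pass the test, while 4 of the 12 were higher, among them Nupr1 (log2 fold change 2.49) and Pla2g2a (1.90), and 2 were lower, Clps (-2.27) and Habp2 (-1.26). Without PBS replicate 3, 4 PC markers were lower, and with scaling by total counts 5 were. Summed leukocyte markers reached no more than 33.3 CPM, stromal and endothelial markers no more than 2.44 CPM, and erythroid markers no more than 0.235 CPM in any library. The sum of leukocyte markers overlapped between the groups, and its members went different ways. The pan-leukocyte marker Ptprc was lower with overlapping groups (log2 fold change -0.95, edgeR adjusted p = 0.027), and this call was lost without PBS replicate 2 or TNF replicate 1, 2 or 4. The myeloid marker Itgam overlapped between the groups as well (log2 fold change 0.14). Of the neutrophil markers, S100a9 had 0 counts in the PBS and 5.76, 6.83, 3.21 and 7.84 CPM in the TNF libraries, and S100a8 had 0 and 32 counts. The T cell marker Cd3e, the endothelial marker Kdr and the fibroblast marker Col1a2 were at 0 counts in all 7 libraries. Markers of other epithelial cells were present, and 7 of 8 stem cell markers, 5 of 7 tested enterocyte markers, 5 of 8 goblet cell markers, 4 of 9 enteroendocrine markers and all 8 tuft cell markers were lower after TNF at an edgeR adjusted p under 0.05, against 30.1% of all genes tested. The enterocyte marker Slc5a1 and the goblet cell marker Spdef were higher, and so was the enteroendocrine marker Tac1, which passed the filter on low counts only through the TNF libraries and is given with no test. Without PBS replicate 1, 8 enterocyte and 2 enteroendocrine markers fell, and without PBS replicate 2, 5 tuft cell markers passed after adjustment while all 8 were lower at an unadjusted p under 0.05. The filter was passed through the PBS libraries alone by 3 of the enterocyte, 3 of the enteroendocrine and 1 each of the stem, goblet and tuft cell markers. Of the markers that passed it through both groups, 6 of 7 stem cell, 2 of 4 enterocyte and 4 of 7 goblet cell markers were lower. So were 3 of 4 enteroendocrine and 7 of 7 tuft cell markers. In bulk samples, fewer cells of a type and less RNA per cell cannot be told apart.

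Of the 9 genes, 8 had enough counts to be tested, and Hsd11b1 did not. After TNF, 4 were higher (Fkbp5, Zbtb16, Sgk1 and Sgk2) and 4 were lower (Nr3c1, Nr3c2, Hsd11b2 and Tsc22d3) in the quasi-likelihood test of edgeR at a Benjamini-Hochberg adjusted p under 0.05. Of all 14329 genes tested, 59.6% passed the same threshold, 29.5% as higher and 30.1% as lower. For these 8 genes the CPM of the groups did not overlap, which held for 60.7% of all genes tested. Sgk2 passed the filter on low counts only through the TNF libraries, where it was high, so it had to differ and the counts over these genes are given as a description. The log2 fold changes lay on both sides of 0, so that their median describes neither side and turned with a single gene: it was 0.65 over the 8 and -0.46 over the 7 without Sgk2, against 0.00 over all genes tested.

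**Figure D1:**
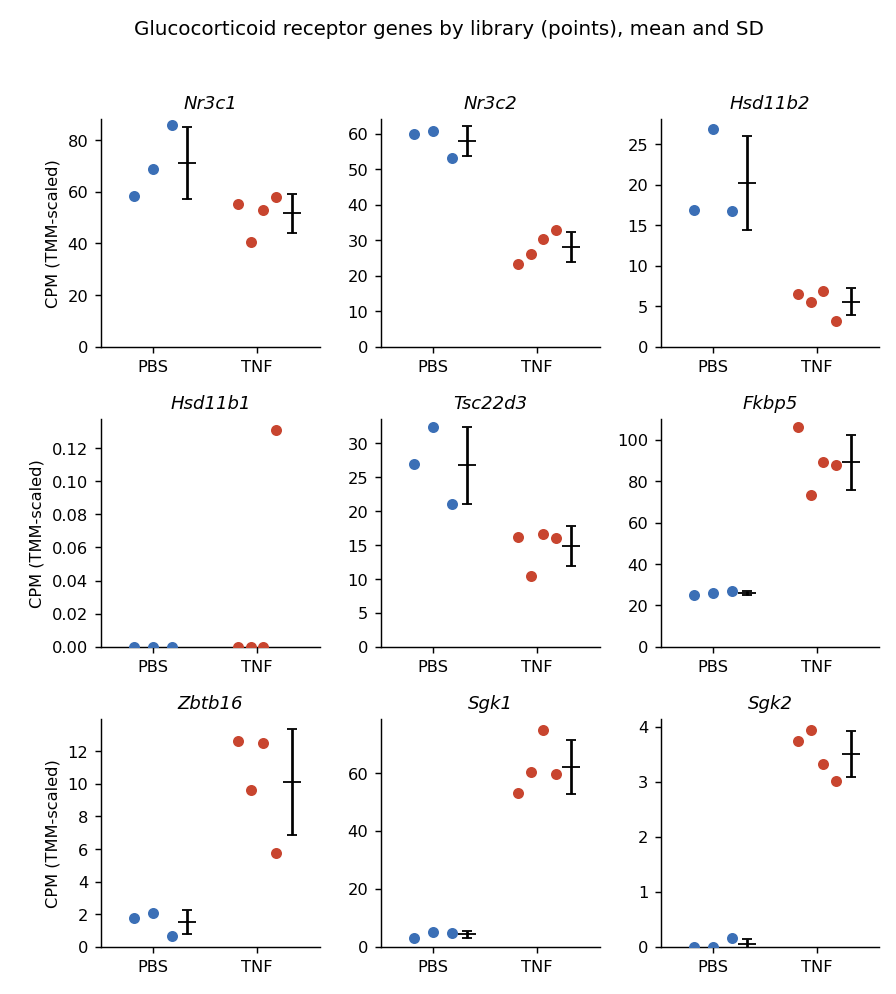
Levels of the 9 genes in every library, as CPM (TMM-scaled library sizes), each panel on a linear axis from 0. Points are libraries, and horizontal lines with bars are the mean and SD of 3 PBS and 4 TNF libraries. The groups are separate in every panel except Hsd11b1, which had 2 counts in a single TNF library and is drawn without mean or SD.

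The transcripts of both receptors were lower in the TNF libraries. Nr3c1 (ENSMUSG00000024431, GRCm39 chromosome 18, 39543598 to 39652474) had 58.3, 68.7 and 85.9 CPM in PBS replicates 1 to 3 and 55.1, 40.7, 53.0 and 57.9 CPM in TNF replicates 1 to 4. The groups were separate but nearly touched, with the highest TNF library at 57.9 CPM and the lowest PBS library at 58.3 CPM. The mean went from 71.0 ± 13.9 (SD, n = 3) to 51.7 ± 7.55 CPM (SD, n = 4), which is a log2 change of -0.46 (SE 0.15, 95% interval -0.77 to -0.14, edgeR adjusted p = 0.015). This call rested on PBS replicate 3: without it the log2 fold change was -0.30 and the edgeR adjusted p 0.087, within a range of 0.000833 to 0.087 over all 14 alternatives.

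Nr3c2 (ENSMUSG00000031618, chromosome 8, 77625576 to 77971863) had 60.1, 60.8 and 53.1 CPM in the PBS and 23.4, 26.3, 30.4 and 32.9 CPM in the TNF libraries. Every PBS library was well above every TNF library. The mean fell 2.05-fold, from 58.0 ± 4.22 (SD, n = 3) to 28.2 ± 4.22 CPM (SD, n = 4), with a log2 change of -1.04 (SE 0.13, 95% interval -1.31 to -0.76, edgeR adjusted p = 9.32e-06). Per kb of exon, the ratio of Nr3c1 to Nr3c2 within a library was 1.05, 1.23 and 1.75 in PBS and 2.56, 1.68, 1.89 and 1.91 in TNF. These ratios overlapped between the groups, since PBS replicate 3 stood above TNF replicate 2, and their difference was not tested.

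Of the enzymes, Hsd11b2 was measurable and fell after TNF, and Hsd11b1 was at or near 0 throughout. Hsd11b2 encodes the type 2 dehydrogenase that turns corticosterone into inactive 11-dehydrocorticosterone. It (ENSMUSG00000031891, chromosome 8, 106245369 to 106250620) had 16.9, 26.9 and 16.8 CPM in the PBS and 6.54, 5.48, 6.9 and 3.2 CPM in the TNF libraries. PBS replicate 2 was the highest and TNF replicate 4 the lowest, and the groups were far apart. The mean fell 3.64-fold, from 20.2 ± 5.8 (SD, n = 3) to 5.53 ± 1.66 CPM (SD, n = 4), with a log2 change of -1.86 (SE 0.25, 95% interval -2.41 to -1.32, edgeR adjusted p = 2.88e-05).

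Hsd11b1 (ENSMUSG00000016194, chromosome 1, 192903918 to 192946489) encodes the type 1 enzyme, which works mainly in the opposite direction and regenerates active hormone. It had 0 counts in the PBS libraries and 2 counts in all TNF libraries together, both in replicate 4, so no difference was detectable at this depth. The gene lies over Lamb3, a laminin gene on the other strand with 1332 counts in the PBS and 5113 in the TNF libraries. No source used here says whether reads were counted by strand.

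The 3 targets outside the kinase family did not move together: Fkbp5 and Zbtb16 rose, and Tsc22d3 fell. Fkbp5 encodes FKBP51, an immunophilin of the receptor complex that lowers the receptor's affinity for hormone and is itself induced by glucocorticoids. It (ENSMUSG00000024222, chromosome 17, 28618058 to 28737521) had 25.1, 26.1 and 27.2 CPM in the PBS and 106, 73.5, 89.3 and 87.8 CPM in the TNF libraries. The PBS libraries lay within about 2 CPM of each other, and the lowest TNF library was far above them. The mean rose 3.41-fold, from 26.1 ± 1.08 (SD, n = 3) to 89.0 ± 13.1 CPM (SD, n = 4), with a log2 change of 1.77 (SE 0.13, 95% interval 1.49 to 2.04, edgeR adjusted p = 6.36e-08).

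Zbtb16 (ENSMUSG00000066687, chromosome 9, 48563141 to 48748664) encodes PLZF, a zinc finger repressor that is induced by glucocorticoids in many cell types. It had 1.79, 2.08 and 0.689 CPM in the PBS and 12.6, 9.6, 12.5 and 5.75 CPM in the TNF libraries. The lowest TNF library, replicate 4, was still above the highest PBS library. The mean rose 6.64-fold, from 1.52 ± 0.736 (SD, n = 3) to 10.1 ± 3.21 CPM (SD, n = 4), with a log2 change of 2.73 (SE 0.38, 95% interval 1.9 to 3.56, edgeR adjusted p = 3.93e-05).

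Tsc22d3 (ENSMUSG00000031431, chromosome X, 139440091 to 139501408) encodes GILZ, a leucine zipper protein induced by glucocorticoids that binds and inhibits NF-kB. It had 26.9, 32.4 and 21.0 CPM in the PBS and 16.2, 10.4, 16.6 and 16.1 CPM in the TNF libraries. The groups were separate, and TNF replicate 2 was the lowest library, as it was for Nr3c1 and, within the TNF group, for Fkbp5. The mean fell 1.8-fold, from 26.8 ± 5.68 (SD, n = 3) to 14.8 ± 2.98 CPM (SD, n = 4), with a log2 change of -0.85 (SE 0.19, 95% interval -1.25 to -0.45, edgeR adjusted p = 0.00129). Its direction was thus opposite to those of Fkbp5 and Zbtb16 in the same libraries.

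Both kinases rose, Sgk1 from a low and Sgk2 from a barely detected level. Sgk1 encodes serum- and glucocorticoid-regulated kinase 1, which is induced by both corticosteroid receptors and by cell stress and raises sodium transport. It (ENSMUSG00000019970, chromosome 10, 21758083 to 21875802) had 3.03, 5.19 and 4.93 CPM in the PBS and 53.1, 60.3, 75.0 and 59.5 CPM in the TNF libraries. Each TNF library was about an order of magnitude above each PBS library. The mean rose 14.0-fold, from 4.38 ± 1.18 (SD, n = 3) to 62.0 ± 9.29 CPM (SD, n = 4), with a log2 change of 3.81 (SE 0.19, 95% interval 3.4 to 4.22, edgeR adjusted p = 2.85e-09).

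Sgk2 (ENSMUSG00000017868, chromosome 2, 162829250 to 162856060) encodes a related kinase that, unlike Sgk1, is not known as a serum-induced gene. It had 0, 0 and 0.159 CPM in the PBS and 3.75, 3.94, 3.32 and 3.01 CPM in the TNF libraries. The PBS group held 3 counts, all in replicate 3, against 242 in the TNF group, so the size of the change was poorly fixed. The ratio of TNF to PBS was 64.1, with an exact (Clopper-Pearson) 95% interval of 21.7 to 313 that covers counting error only. The ratio was 41.1 (13.9 to 201) without PBS replicate 2, and without PBS replicate 3, which leaves 0 PBS counts, Sgk2 was at least 42.0-fold higher against a floor of 3 counts over the PBS group.

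The promoter sequences of these genes were searched for GREs, as the hexamers AGAACA and TGTTCT with any 3 bases between them, on either strand, since Sgk1, Tsc22d3 and Fkbp5 are textbook targets that moved in different directions here. RefSeq promoter windows of GRCm38.p6, which run from 250 bases before to 50 bases after an annotated start, matched 5 of the 9 genes: 6 windows of Sgk1, 3 of Tsc22d3 and 1 each of Fkbp5, Nr3c2 and Hsd11b1. Nr3c1, Sgk2, Hsd11b2 and Zbtb16 were without one. Only 3 of all 32851 windows (0.00913%) held the full element, and 1 of them belonged to Sgk1, at chr10:21993640-21993939 on the plus strand. Its match, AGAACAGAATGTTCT, began 189 bases upstream of the start, and a further single hexamer, TGTTCT, lay 242 bases upstream. For each of the 3 targets 1 window is printed 5′ to 3′, with capitals marking matches to the full element or to its hexamer AGAACA or TGTTCT. Those of Sgk1 and Tsc22d3 were chosen among several for their matches, and Fkbp5 had only this one.
Sgk1, chr10:21993640-21993939, plus strand: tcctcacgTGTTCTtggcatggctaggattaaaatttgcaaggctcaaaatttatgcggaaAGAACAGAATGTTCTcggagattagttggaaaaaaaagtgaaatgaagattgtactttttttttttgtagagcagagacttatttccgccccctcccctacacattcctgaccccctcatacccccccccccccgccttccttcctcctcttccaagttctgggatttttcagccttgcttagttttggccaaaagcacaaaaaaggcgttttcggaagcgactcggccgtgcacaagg
Tsc22d3, chrX:140600473-140600772, minus strand: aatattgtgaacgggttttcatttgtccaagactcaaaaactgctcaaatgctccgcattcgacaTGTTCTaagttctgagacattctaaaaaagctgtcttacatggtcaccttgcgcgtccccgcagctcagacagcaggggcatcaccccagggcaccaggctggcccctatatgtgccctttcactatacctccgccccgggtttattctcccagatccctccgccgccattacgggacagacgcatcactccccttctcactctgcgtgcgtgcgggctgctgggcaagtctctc
Fkbp5, chr17:28486100-28486399, minus strand: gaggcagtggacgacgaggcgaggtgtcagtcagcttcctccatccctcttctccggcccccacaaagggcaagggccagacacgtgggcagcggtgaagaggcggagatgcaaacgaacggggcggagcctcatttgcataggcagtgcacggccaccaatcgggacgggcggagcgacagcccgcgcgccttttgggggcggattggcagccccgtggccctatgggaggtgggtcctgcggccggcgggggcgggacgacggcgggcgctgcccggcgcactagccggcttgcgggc
The Tsc22d3 window held a single TGTTCT, 185 bases upstream of that start, and the Fkbp5 window, with a GC content of 70.7%, held no match. The hexamer, which is also contained in each full element, was found in 19.0% of all windows. It also occurred in a window of Sgk1 at chr10:21881934-21882233 and in another at chr10:21991973-21992272. An NF-kB consensus, found in 8.46% of all windows, matched a different Tsc22d3 window, chrX:140542619-140542918, as GGAGCGTCCC 13 bases downstream of the start. These matches are descriptions of the letters in short windows, and counts summed over a gene do not tell which start was used. Sequence outside the windows was not searched.

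On a scale that allows genes to be set against each other, CPM per kb of annotated exon, the order of the 9 genes differed between the groups. In PBS it was Hsd11b2 at 10.9 ± 3.12, Nr3c1 at 9.01 ± 1.77, Nr3c2 at 6.78, Tsc22d3 at 4.32, Fkbp5 at 2.36, Sgk1 at 0.728, Zbtb16 at 0.162, Sgk2 at 0.0123 and Hsd11b1 at 0 CPM per kb (means, with SD where given, n = 3). The libraries of Hsd11b2 and Nr3c1 overlapped, as did those of Sgk2 and Hsd11b1, so their ranges do not fix the order of these neighbours. In TNF, Sgk1 came first at 10.3 ± 1.55, followed by Fkbp5 at 8.04 ± 1.19, Nr3c1 at 6.56, Nr3c2 at 3.30, Hsd11b2 at 2.98, Tsc22d3 at 2.39, Zbtb16 at 1.08, Sgk2 at 0.812 and Hsd11b1 at 0.00654 CPM per kb (n = 4). There the neighbours Sgk1 and Fkbp5, Fkbp5 and Nr3c1, Nr3c2 and Hsd11b2, Hsd11b2 and Tsc22d3, and Zbtb16 and Sgk2 overlapped. These ranges were taken over a group, and for overlapping neighbours the order within each library was not examined. The lengths are those of all annotated exons, and shorter transcripts in use would raise a gene's value.

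Among 22 other genes known to be induced by glucocorticoids, 14 of the 20 tested were higher, 3 were lower and 3 did not pass the test, with a median log2 fold change of 1.20 against 0.00 over all genes tested. Tat and, named after its values were seen, Angptl4 had passed the filter only through the TNF libraries, and of the 18 other genes 12 were higher, against 29.5% of all genes tested, with a median of 0.97. Several of them are also known to respond to TNF or to cell stress. Tat, the tyrosine aminotransferase that is a classic glucocorticoid-induced gene of liver, had 0.556, 0.508 and 0.159 CPM in the PBS and 114, 108, 74.2 and 108 CPM in the TNF libraries. All TNF libraries were far above the PBS libraries, in which Tat had 22 counts in all, and the fitted log2 change was 7.94 (SE 0.28), given with no test because Tat entered the fit through the TNF libraries. Anxa1, the anti-inflammatory protein annexin A1, rose from 0.868 ± 0.175 (SD, n = 3) to 25.2 ± 6.44 CPM (SD, n = 4), which is a log2 change of 4.84 (SE 0.27, edgeR adjusted p = 5.67e-09).

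Not all members of that list rose. Pck1, the gluconeogenic enzyme phosphoenolpyruvate carboxykinase, fell from 35.2 ± 8.34 (SD, n = 3) to 10.7 ± 0.435 CPM (SD, n = 4), which is a log2 change of -1.72 (SE 0.16, edgeR adjusted p = 6.25e-07). Irs2, an adaptor of the insulin receptor, went from 105 ± 41.7 (SD, n = 3) to 70.8 ± 5.22 CPM (SD, n = 4), but the groups overlapped and the spread was set by PBS replicate 1 at 152 CPM. Its log2 change was -0.56 (SE 0.21, edgeR adjusted p = 0.0373), and -0.19 without that library (adjusted p = 0.216). The call was also lost without TNF replicate 1, 2 or 3 (-0.55, -0.56 and -0.54). Chosen after their values were seen, Cebpd (4.79), Dusp1 (2.50), Zfp36 (1.67) and Per1 (1.28) are further genes that rose, with the log2 fold change given for each, and Klf15 at -0.34 ± 0.15 (SE, edgeR adjusted p = 0.0622) is one that did not pass. RefSeq windows were found for 18 of the 22 genes. None held the full GRE, and Bcl6, named after its match was seen, was the only one with the hexamer. Of all genes with a window, 0.0111% held the full GRE and 21.3% the hexamer.

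**Figure D2:**
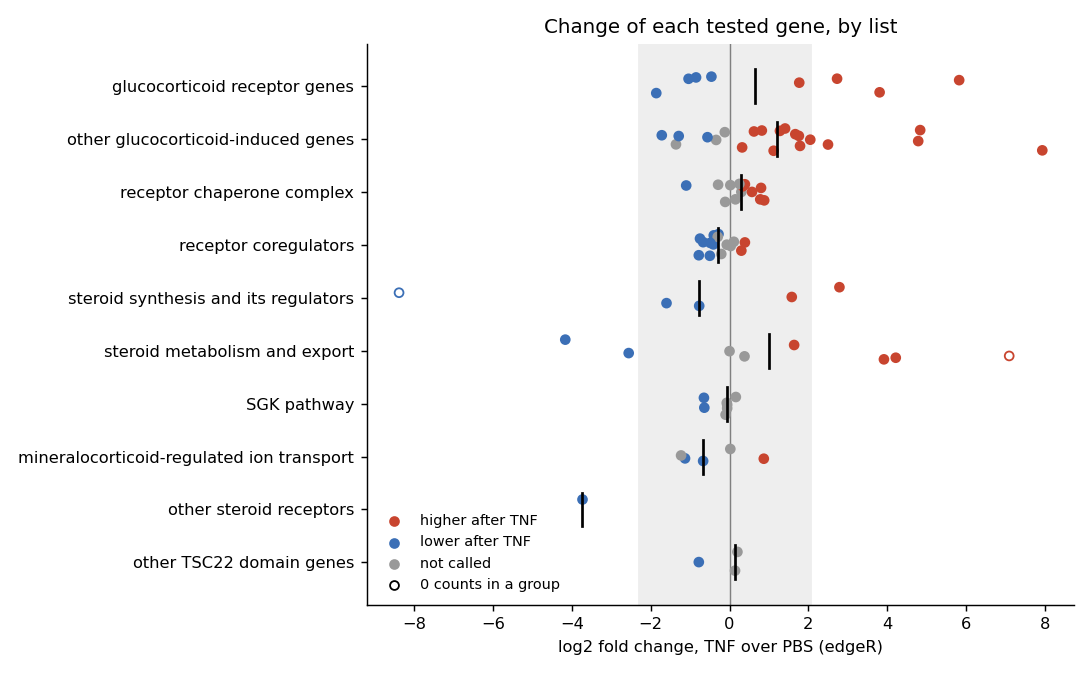
Log2 fold change (TNF over PBS, edgeR) of each tested gene in the 9 genes and in 9 lists of related genes. Black ticks are list medians, the grey band spans the 5th to 95th percentile of all 14329 genes tested (-2.30 to 2.08), and open circles are genes with 0 counts in a group, whose fitted value is no bound. The median of the other glucocorticoid-induced genes was 1.20 (0.97 without the genes that passed the filter through a single group), and the chaperones and coregulators lie within the band.

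Genes of the chaperone complex that holds the receptor mostly rose slightly or did not pass the test. Of 13 genes, all tested, 6 rose, 1 fell and 6 did not pass, so that 53.8% were called against 59.6% of all genes tested, and the median log2 fold change was 0.30. Dnajb1, an HSP40 co-chaperone, rose from 26.7 to 49.1 CPM (log2 change 0.88 ± 0.13 SE, edgeR adjusted p = 4.54e-05), and Ptges3, which encodes the co-chaperone p23, rose from 73.3 to 128 CPM (0.80 ± 0.11, adjusted p = 2.68e-05). Hsp90ab1, the constitutive HSP90 gene and chosen after its value was seen, was at 0.30 ± 0.13 and did not pass (edgeR adjusted p = 0.0574).

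Fkbp4 was the gene that fell. It encodes FKBP52, an immunophilin that competes with FKBP51 for the same place in the complex and favours transport of the receptor to the nucleus. Fkbp4 had 207, 220 and 203 CPM in the PBS and 88.4, 95.1, 112 and 96.7 CPM in the TNF libraries, and these groups were far apart. Its log2 change was -1.10 (SE 0.10, edgeR adjusted p = 9.21e-07), in the opposite direction to Fkbp5. Per kb of exon, the ratio of Fkbp5 to Fkbp4 within a library was 0.041, 0.0402 and 0.0455 in PBS and 0.405, 0.262, 0.269 and 0.308 in TNF. The mean ratio was 0.0422 in PBS and 0.311 in TNF, and every TNF library was above every PBS library.

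Of 15 coregulators of nuclear receptors, all tested, 8 fell, 2 rose and 5 did not pass, so that 66.7% were called against 59.6% of all genes tested, and the median log2 fold change was -0.30. Smarca4, the ATPase of a chromatin remodelling complex that the receptor recruits, fell from 203 to 118 CPM (log2 change -0.78 ± 0.11 SE, edgeR adjusted p = 4.22e-05). The genes that rose did so by little: Nrip1, a corepressor whose groups overlapped, was at 0.39 ± 0.12 (edgeR adjusted p = 0.0156) and Hdac3, a histone deacetylase, at 0.30 ± 0.12 (adjusted p = 0.0484). Under the 14 alternatives Nrip1 passed in 10 and Hdac3 in 4. Nrip1 did not pass without PBS replicate 2 (0.29) or TNF replicate 4 (0.31), and Hdac3 did not without PBS replicate 1 or 2 (0.25 and 0.27) or TNF replicate 2, 3 or 4 (0.21, 0.33 and 0.32).

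Genes that convert or export steroids around the receptor changed in both directions. H6pd encodes hexose-6-phosphate dehydrogenase, which supplies NADPH to the type 1 dehydrogenase in the endoplasmic reticulum. It had 29.4, 25.6 and 22.6 CPM in the PBS and 335, 421, 407 and 398 CPM in the TNF libraries, with a log2 change of 3.92 (SE 0.14, edgeR adjusted p = 1.62e-10). H6pd thus rose 15.1-fold in cells in which Hsd11b1 itself was barely detected.

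Abcb1a, which encodes the efflux pump P-glycoprotein, had 80.9, 81.8 and 71.6 CPM in the PBS and 228, 231, 264 and 249 CPM in the TNF libraries. It rose 3.12-fold (log2 change 1.64 ± 0.11 SE, edgeR adjusted p = 2.56e-08). Srd5a1, a steroid reductase that inactivates glucocorticoids among other steroids, had 25.2, 15.1 and 13.6 CPM in the PBS and 2.18, 2.65, 2.83 and 4.58 CPM in the TNF libraries, and fell 5.88-fold (log2 change -2.56 ± 0.28 SE, edgeR adjusted p = 3.58e-06). Of the 11 genes of steroid metabolism and export, 8 were tested, of which 4 were higher, 2 were lower and 2 did not pass, or 75.0% called against 59.6% of all genes tested. Of these, 2 higher genes and 1 lower gene had passed the filter through a single group, where they were high. The other 5 held 2 that rose and 1 that fell, which are those described above.

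The synthesis of steroids was represented by few transcripts. Of 16 genes of steroid synthesis and its regulators, 6 were at 0 counts in all libraries, among them Cyp11b1, the enzyme of the last step to corticosterone, and Cyp21a1, and 5 could be tested. Cyp17a1, a steroid hydroxylase, had 2.28, 2.49 and 2.33 CPM in the PBS libraries and 0 counts in every TNF library, at least 54.5-fold lower against a floor of 3 counts over the TNF group. Star, which carries cholesterol into mitochondria, had 0.432, 0.203 and 0.583 CPM in the PBS and 3.58, 3.41, 3.37 and 0.981 CPM in the TNF libraries, a fitted log2 change of 2.79 (SE 0.59). Cyp17a1 passed the filter only through the PBS and Star only through the TNF libraries, so both are given as descriptions with no test.

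Transcripts for both proteins of the electron chain that serves mitochondrial steroid hydroxylases changed, in opposite directions. Fdx1, the ferredoxin, rose from 5.21 ± 0.807 to 15.6 ± 1.78 CPM (log2 change 1.58 ± 0.19 SE, edgeR adjusted p = 6.28e-06), and Fdxr, its reductase, fell from 5.75 to 1.89 CPM (-1.60 ± 0.29, adjusted p = 2.82e-04). Nr5a2, which encodes LRH-1, a nuclear receptor known to drive intestinal steroid synthesis, fell from 23.0 ± 5.01 to 13.5 ± 2.62 CPM (-0.77 ± 0.19, adjusted p = 0.00276).

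**Figure D3:**
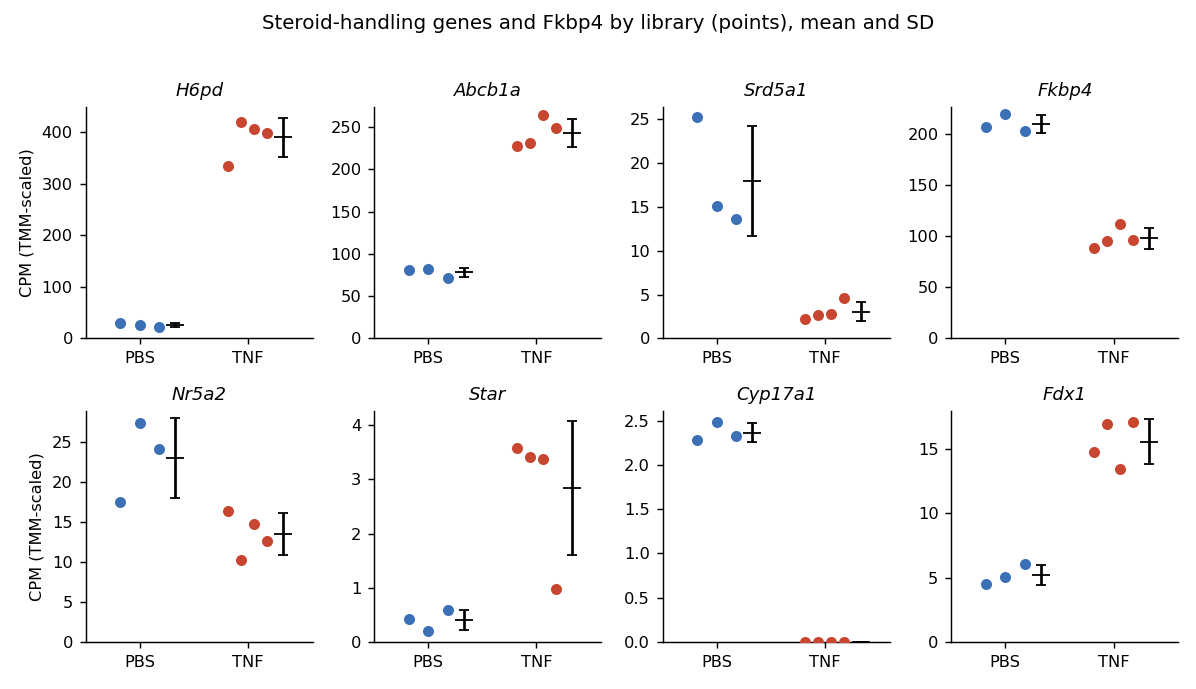
Levels in every library of Fkbp4 and of genes that convert, export or make steroids, in CPM (TMM-scaled, linear axes from 0), with mean and SD of 3 PBS and 4 TNF libraries. H6pd and Abcb1a were higher and Srd5a1 and Cyp17a1 lower in all TNF libraries, and TNF replicate 4 stood apart for Star (0.981 CPM).

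Genes around the kinases and the mineralocorticoid receptor changed in both directions or did not pass the test. Of 7 further genes of the SGK pathway, 2 fell and none rose in edgeR, where none was higher at an unadjusted p under 0.05 either, and DESeq2 also gave 2 lower and 0 higher. This is 28.6% called, against 59.6% of all genes tested. Pdpk1, the kinase that activates SGK proteins, fell from 134 to 85.6 CPM (log2 change -0.65 ± 0.11 SE, edgeR adjusted p = 2.07e-04), and Nedd4l, a ubiquitin ligase that SGK1 inhibits, fell from 60.0 to 38.6 CPM (-0.64 ± 0.12, adjusted p = 3.86e-04). Sgk3, the remaining kinase of the family and named after its value was seen, was at -0.10 ± 0.18 (edgeR adjusted p = 0.649).

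Of 8 genes of ion transport known to be regulated by mineralocorticoids, 5 were tested and 3 called (60.0%, against 59.6% of all genes tested). One of the genes not called, 1 of the 5, had passed the filter through the PBS libraries alone. Of the 4 others, 75.0% were called. Atp1b1, a subunit of the sodium pump, rose from 513 ± 72.9 to 940 ± 56.2 CPM (log2 change 0.87 ± 0.13 SE, edgeR adjusted p = 5.18e-05). Scnn1a, a subunit of the epithelial sodium channel, fell from 47.2 ± 9.52 to 21.6 ± 2.56 CPM (-1.13 ± 0.15, adjusted p = 1.61e-05), and Usp2, a deubiquitinase, fell from 15.0 to 9.48 CPM (-0.67 ± 0.18, adjusted p = 0.00538). The other two did not pass. Of 3 further TSC22 domain genes, Tsc22d1 fell like Tsc22d3, from 135 to 78.5 CPM (-0.78 ± 0.10, edgeR adjusted p = 1.21e-05), and the others did not pass, so that 33.3% were called. Of 4 other steroid receptors, Esr1, the oestrogen receptor alpha, was the only one to pass the filter. Named after its value was seen, it had 108 counts in the PBS and 10 in the TNF libraries, and it had passed through the PBS libraries alone, so no test is given.

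Summed markers of tuft cells, stem cells, enterocytes and goblet cells were lower in all TNF than in all PBS libraries, as were the genes that fell, and those of enteroendocrine cells overlapped between the groups (58.0 to 152 CPM in PBS and 76.9 to 113 CPM in TNF). The 8 tuft cell markers summed to 1700, 2530 and 1520 CPM in the PBS and 768, 455, 690 and 305 CPM in the TNF libraries, and Hsd11b2 was highest and lowest in the same libraries as this sum. Tsc22d3 was highest in PBS replicate 2 as well, but lowest in TNF replicate 2, and Nr3c2 did not follow the sum within the TNF group. The 8 stem cell markers summed to 3830, 4070 and 5150 CPM in the PBS and 2710, 2040, 2340 and 2790 CPM in the TNF libraries. Nr3c1 had the same order as this sum over all 7 libraries, with PBS replicate 3 highest and TNF replicate 2 lowest. The 10 enterocyte markers summed to 651 to 815 CPM in the PBS and 303 to 375 CPM in the TNF libraries. Most of this sum was Vil1, at 561 to 636 and 235 to 308 CPM. The 8 goblet cell markers summed to 7590 to 14300 CPM in the PBS and 6840 to 7450 CPM in the TNF libraries. Their largest part was Muc2, which did not pass the test, at 3430 to 6970 and 5530 to 6270 CPM. The part of these cells in the lower levels of Nr3c1, Nr3c2, Hsd11b2 and Tsc22d3 was not tested.

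**Figure D4:**
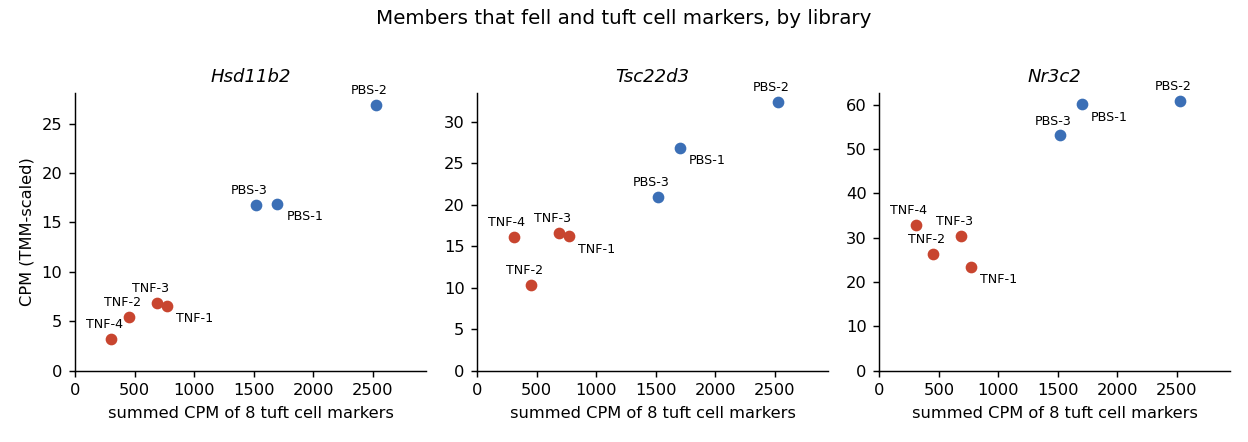
CPM of Hsd11b2, Tsc22d3 and Nr3c2 (TMM-scaled) against the summed CPM of 8 tuft cell markers, 1 point for each of 3 PBS and 4 TNF libraries, on linear axes from 0. Both measures are lower in all TNF than in all PBS libraries, and the axes share library and depth.

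Across the 7 libraries, the genes whose pattern was most like that of Nr3c1 were Far2, Aqp4, Serbp1, Kitl and Mcm5, with Pearson correlations of 0.9787, 0.975, 0.9666, 0.9647 and 0.9542 of log2(CPM + 1) among 8428 genes compared. For Tsc22d3 they were Cutal (0.9886), Pla2g4a (0.9839), Gal3st1 (0.9831), Psap (0.9816) and Cfap97 (0.9784). These values describe 7 points that share the contrast of treatment as well as depth. All of these genes had a lower mean in TNF, as did Nr3c1 and Tsc22d3.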

How the data were processed

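Bulk RNA-seq of purified PCs was compared between 3 PBS and 4 TNF libraries, grouped by their labels, with each library from a different mouse. The authors deposited raw counts per Ensembl gene. The submitters' processing notes name FastQC, Trimmomatic 0.39, STAR 2.7.10a, DESeq2 and the builds mm10 and mm39 without roles. The counting program, annotation, use of strand and treatment of reads with several matches were in no source used here (not stated), so overlapping genes are uncertain. RNA was total RNA, sequenced with single-end reads. Symbols, coordinates and exon lengths came from GENCODE M39 (GRCm39), in which 54749 of 55414 identifiers (98.8%) were found.

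Counts were tested in R 4.3.3 with edgeR 4.0.16 (robust quasi-likelihood, two-sided, TMM scaling, filterByExpr, 14329 genes) over all 7 libraries without covariates, with p adjusted over all genes tested. SEs follow from each fitted change and its F statistic. The paper given with the series described other experiments, so this design was not taken from it. Library totals ran from 15511455 to 19193721, and replicates differed by more than counting noise (chi-square per degree of freedom at least 15.7). Intervals of log2 changes come from the edgeR fit and include the spread between replicates, whereas the Clopper-Pearson interval and the floors cover counting error only. A gene is said to have passed the filter through a single group where at least 3 libraries of that group and fewer than 3 of the other reached its minimum, and no p is given for those named.

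The genes and lists were chosen with earlier results of these data known. Of each list, the text names the genes past the threshold with the 2 largest rises and 2 largest falls among those with a mean of at least 5 CPM, any tested steroid synthesis gene with at least 1 CPM, and the 5 genes most correlated with Nr3c1 and Tsc22d3 among those of at least 10 CPM. Of these, 1 coregulator is not reported here. Any other gene is said to be named after its value or match was seen, or stands as a marker or as a gene at 0 counts. Lamb3 is named because it overlaps Hsd11b1. The 14 alternatives were DESeq2 size factors, total counts, scaling without alpha-defensins and Lyz1, no filter, at least 1 CPM in 3 libraries, DESeq2 1.42.0, the replicate number as a block, and leaving out each library.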

Additional observations from a re-analysis of the deposited data

Results flagged for a closer look

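In the TNF group, 4 of 49 values examined had a library whose gap to the nearest other, divided by the range of the group, was above Dixon's 95% limit for 4 samples. Chance gives such a gap in about 1 in 20 groups, and the 3 PBS libraries were not examined this way. Tsc22d3 was at 10.4 CPM in TNF replicate 2, against 16.1, 16.2 and 16.6 CPM in the others (ratio 0.922). Hdac3 was at 67.6 CPM in the same library, against 52.4 to 53.7 CPM (ratio 0.917). Tat was at 74.2 CPM in TNF replicate 3, against 108 to 114 CPM (ratio 0.848). Star was at 0.981 CPM in TNF replicate 4, against 3.37 to 3.58 CPM (ratio 0.92). Each gene's log2 fold change kept its sign without that library.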

How the results depend on the processing

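Sgk2 entered the fits through the TNF libraries and is left out of this count. Of the 98 tests of the 7 other genes under 14 alternatives, 97 kept their direction and their side of the threshold, and the exception was Nr3c1 without PBS replicate 3 (-0.30, within -0.58 to -0.30 over the libraries left out). In number, 7131 to 9080 genes were called in all under the alternatives, against 8543. Scaling by total counts gave a median over all genes of -0.163 on the log2 scale, against 0.002, and values under it are relative to that shift. Under that scaling the chaperones had 2 lower genes instead of 1, the coregulators 0 higher instead of 2 (0 at an unadjusted p under 0.05), the PC markers 5 lower instead of 2, and the enterocyte markers 0 higher instead of 1 (0 unadjusted). Total-count scaling also gave 11 higher other glucocorticoid-induced genes instead of 14 (12 unadjusted) and 4 higher chaperones instead of 6 (4 unadjusted). The coregulators had 1 higher gene with DESeq2 size factors, with at least 1 CPM in 3 libraries and with the DESeq2 test. Without the filter, 2 other steroid receptors were lower, 5 tuft cell markers lower and 2 leukocyte markers higher, against 1, 8 and 1.

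Replicate numbers do not pair these mice: same-numbered libraries had correlated deviations of -0.398, -0.0473 and -0.227, and libraries did not correlate best with their own number. The fit with the replicate number as a block called 7131 genes and the same number of the 8 genes, with 0 higher coregulators (1 unadjusted) and 0 lower leukocyte markers (0 unadjusted). It had 11 higher other glucocorticoid-induced genes (13 unadjusted) and 4 higher chaperones (6 unadjusted).

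Leaving out a library gave 1 to 2 lower chaperones, 0 to 2 higher coregulators, 2 to 4 lower PC markers, 4 to 8 lower enterocyte markers, 5 to 8 lower tuft cell markers, 2 to 5 lower enteroendocrine markers, 1 to 3 higher and 0 to 1 lower leukocyte markers. It also gave 11 to 14 higher other glucocorticoid-induced genes and 4 to 6 higher chaperones, both lowest without PBS replicate 3 or TNF replicate 3. Of 308 tests of 22 other named genes that passed the filter through both groups, 18 lost the threshold and 290 did not. The cause of these changes was not tested. Depth limits Sgk2 and Hsd11b1, with 3 and 0 PBS counts.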
